A study of Mus musculus with 22 samples.

Results

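The CD45+ (immune) fraction of the mouse lung at postnatal day 7 (P7) was compared with the CD31+ (endothelial) and CD326+ (epithelial) fractions of the same lungs by RNA sequencing. The comparison rests on 6 of the 22 libraries of a developmental series, 2 for each of 3 fractions, and on the 11569 of 24344 genes whose value reached 1 in 2 or more of these 6. All mice were wild-type C57BL6, no treatment is named, and all libraries were made from total RNA of whole-lung fractions. At P7 and P28, immune, endothelial and epithelial libraries with the same replicate number carried a common animal code, here called a pool. At E16.5 the 2 epithelial libraries carry the codes the other way round, and the pools there follow the codes. The sources used here do not give how many animals a pool held or which other cells each gate removed. Immune libraries from embryonic day E16.5 and from P28, 2 at each age with the matching endothelial and epithelial libraries, entered the comparisons between ages at the end.

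CD45, the phosphatase encoded by Ptprc, is carried by nearly all white blood cells, and a CD45+ sort of lung is therefore a mixture. Around birth, fetal monocytes enter the airspaces and mature into alveolar macrophages, which clear surfactant and depend on the cytokine GM-CSF. Interstitial macrophages, monocytes, neutrophils, mast cells, dendritic cells and lymphocytes make up the rest. In such bulk samples, fewer cells of a type and less RNA per cell cannot be told apart.

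The deposited values are non-negative signals without a stated unit, and each library adds up to 228405. Read depth is unknown, so no counting interval was possible. Each P7 library had between 9596 and 10327 genes at a value of 1 or more, and the Pearson correlation of replicates across genes was 0.9656 for immune, 0.9652 for endothelial and 0.9621 for epithelial libraries; genes are not independent replicates. Differences were tested on log2(value + 1), which understates differences of genes with low values. The test was limma's, and a gene is called here when its p-value, adjusted over all 11569 genes, was below 0.05. A difference followed by ± carries its standard error, and levels are given for pool 1 and then pool 2. P-values rest on the spread between the 2 libraries of a group, estimated per gene over all 11 groups and ages together. In pool 1 the epithelial library came from another sequencing run than the other 2 libraries. In pool 2 all 3 came from 1 run, and pool and run therefore cannot be told apart.

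The sort antigens separated the fractions, and both immune libraries carried the immune markers. Ptprc (chr1:138062861-138175708, minus strand, GRCm38) was 33.2 and 30.9 in the immune libraries, 0.224 and 0.311 in the endothelial libraries and 0.0335 and 0.0824 in the epithelial libraries, a log2 difference of 4.83 ± 0.22, adjusted p = 2.34e-10. Tyrobp (chr7:30413760-30417585, plus strand), which encodes the adaptor DAP12 of myeloid and natural killer cell receptors, was 323 and 315 in the immune libraries, 2.34 and 1.86 in the endothelial libraries and 0.733 and 0.529 in the epithelial libraries, a difference of 7.16 ± 0.43, adjusted p = 8.01e-09. Both genes were far above all 4 other libraries in both pools. Epcam, which encodes CD326, was 6.41 and 3.36 in the immune libraries, 1.06 and 3.18 in the endothelial libraries and 35.1 and 37.2 in the epithelial libraries. Pecam1, which encodes CD31, was 8.05 and 5.59 in the immune libraries, 64.8 and 77.8 in the endothelial libraries and 5.54 and 5.70 in the epithelial libraries. Neither antigen was at 0 in the immune libraries, and Pecam1 in immune libraries lay beside its epithelial level.

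All 18 genes of the immune identity list were called higher, with a median of 4.66, and all 18 were above the 4 other libraries. Laptm5, a lysosomal protein of blood cells, was 174 and 231 in immune, 1.21 and 1.66 in endothelial and 0.43 and 0.373 in epithelial libraries (6.77 ± 0.30, adjusted p = 2.25e-10), and Cd52, a small surface glycoprotein, was 199 and 227 in immune, 3.14 and 2.87 in endothelial and 1.06 and 0.326 in epithelial libraries (6.37 ± 0.39, adjusted p = 8.71e-09). Coro1a, an actin regulator of leukocytes, was 232 and 167 in immune, 3.73 and 1.22 in endothelial and 0.908 and 0.348 in epithelial libraries (6.44 ± 0.28, adjusted p = 1.74e-10). Rac2, a leukocyte GTPase, was 59.8 and 78.97 in immune, 0.784 and 0.95 in endothelial and 0.541 and 1.16 in epithelial libraries (5.24 ± 0.19, adjusted p = 2.52e-11). Selplg, the selectin ligand PSGL-1 from the list of adhesion genes, was 30.3 and 29.7 in immune, 0.3 and 0.254 in endothelial and 0.0901 and 0 in epithelial libraries (4.75 ± 0.15, adjusted p = 1.41e-11). Immune libraries were high and the other libraries low for all 5, without overlap.

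Markers of the other fractions were present in both immune libraries, and epithelial identity, alveolar type 2 and endothelial genes more so in that of pool 1. Relative to their level in their own fraction, the median epithelial identity gene was at 19.1% in the pool 1 and 10.5% in the pool 2 immune library. The alveolar type 2 list stood at 13.2% and 6.77%, the endothelial list at 11.9% and 6.36% and the lymphatic list at 6.10% and 6.34%. Immune identity genes were at 0.95% and 1.07% in the endothelial libraries and at 0.51% and 0.26% in the epithelial libraries. No gene of the epithelial or endothelial identity lists was at 0 in either immune library, and their part in the results below was not tested.

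**Figure D1:**
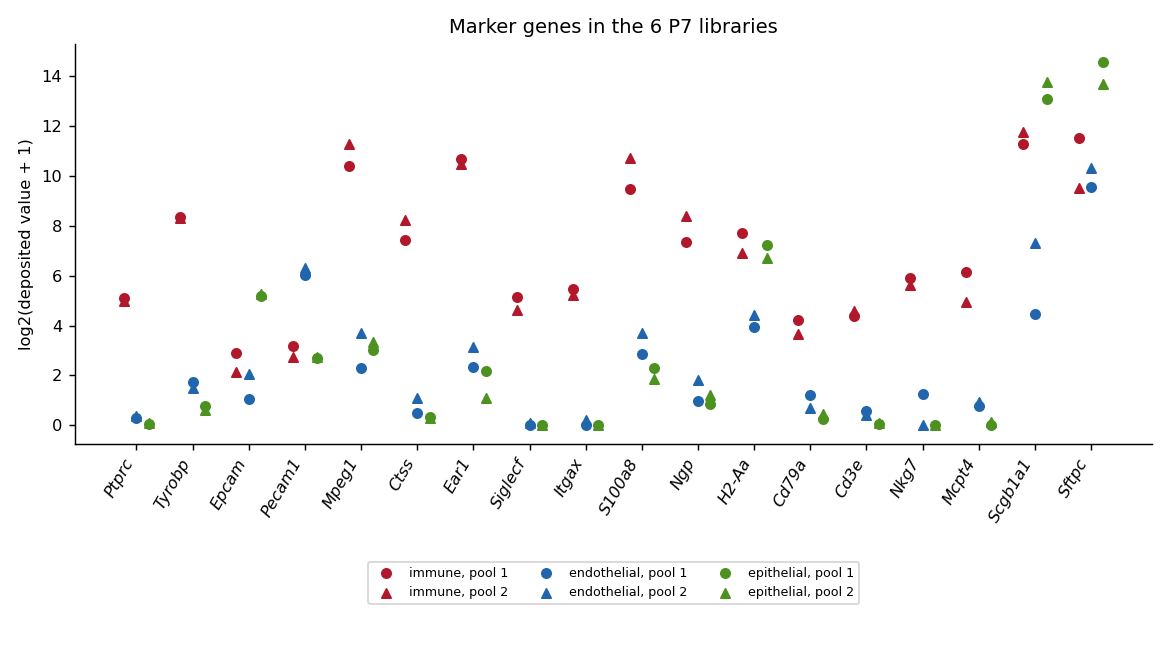
Levels of 18 marker genes in the 6 P7 libraries, as log2(deposited value + 1), with color for the fraction and shape for the pool. Ptprc, Tyrobp and the macrophage, neutrophil, lymphocyte and mast cell genes are high in both immune libraries. Epcam and Sftpc are highest in the epithelial and Pecam1 in the endothelial libraries, and Sftpc is present in all fractions. H2-Aa is shared by immune and epithelial libraries, while Scgb1a1 in immune libraries lies between the other fractions.

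Against the mean of both other fractions, 1781 genes were called higher in immune libraries (15.4% of genes tested) and 2370 were called lower (20.5%), together 35.9%. Every one of these 4151 calls had the same sign within each pool, as did 9010 of the 11569 genes tested. Calls rest on the means of the same 2 pools, so this agreement is no separate test of them. Both immune libraries lay above all 4 others for 1956 genes (16.9%). Without the pool 2 immune library the calls were 1273 higher and 1146 lower. After rescaling by size factors they were 2096 and 2226.

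Setting each fraction apart showed which genes were immune against both. Against endothelial libraries, 1629 genes were higher (14.1%) and 2527 lower (21.8%), together 35.9%; after rescaling by size factors these were 2080 and 1889, and the median over all genes moved from -0.16 to 0.04. Against epithelial libraries, 2167 were higher (18.7%) and 1832 lower (15.8%), together 34.6%. A total of 1155 genes (9.98%) were called higher against both, and 663 (5.73%) lower against both. Mixed patterns were fewer: 154 genes (1.33%) were higher than in endothelium and lower than in epithelium, and 90 (0.778%) were the reverse. The 2 comparisons share the immune libraries, so these overlaps carry no test.

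**Figure D2:**
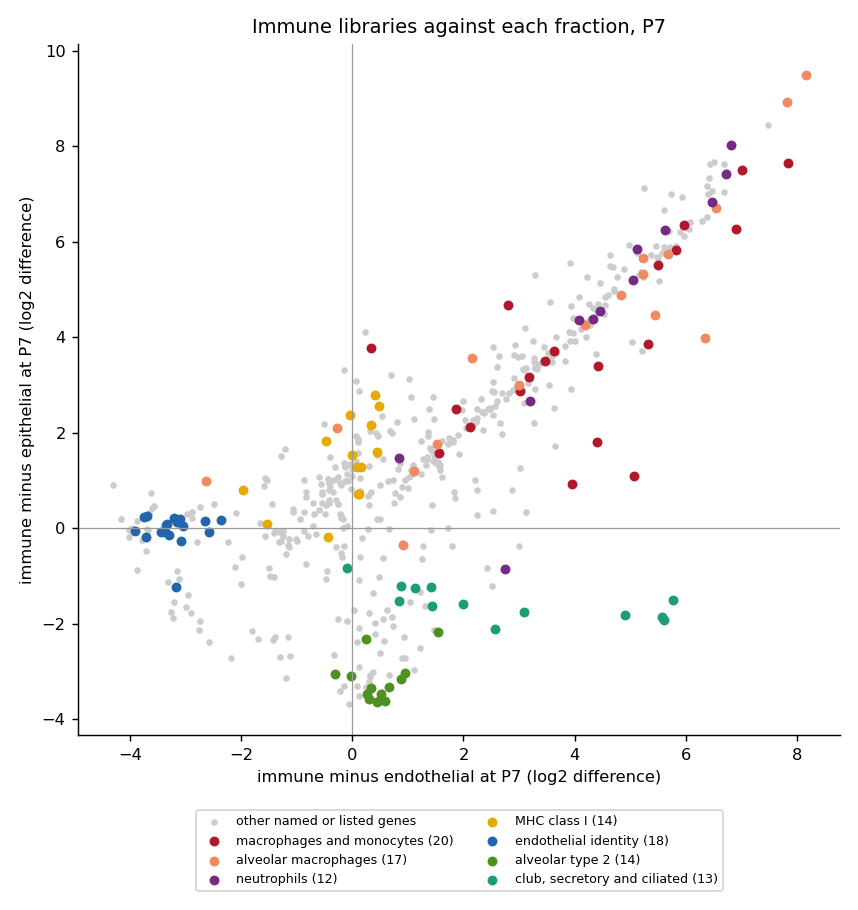
Each point is a gene of the lists or named by size, at its log2 difference from the endothelial (horizontal) and from the epithelial (vertical) P7 libraries; numbers in the key are tested members. Macrophage and neutrophil genes lie along the diagonal at high values, endothelial identity genes at the left, alveolar type 2 genes at the bottom, and most MHC class I genes near 0 on the horizontal axis.

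Outside the lists, 10 called genes were named by the size of their difference. They had a mean of at least 10 in immune libraries and no overlap with the other libraries. Predicted genes, pseudogenes and ribosomal protein genes were among those left out of this choice. The 10 included several receptors of myeloid cells. Cd33 (chr7:43524216-43544428, minus strand), a sialic acid-binding receptor, was 128 and 310.5 in immune, 0.0444 and 2.31 in endothelial and 0.0572 and 0.219 in epithelial libraries (7.11 ± 0.50, adjusted p = 3.3e-08). Mcemp1, a membrane protein of mast cells and macrophages, was 186 and 177 in immune, 0.889 and 1.40 in endothelial and 0.104 and 0.159 in epithelial libraries (6.88 ± 0.44, adjusted p = 1.14e-08). Ifitm6, of the interferon-induced transmembrane family, was 154 and 302 in immune, 1.41 and 0.815 in endothelial and 1.21 and 0.232 in epithelial libraries (6.87 ± 0.46, adjusted p = 2.1e-08). Mcemp1 was even between pools, while Cd33 and Ifitm6 were higher in pool 2. Stfa2l1, Stfa2 and Wfdc17, described with the neutrophil genes, were among the 10 as well, and so were the inhibitory receptor genes Pirb (6.25) and Lilrb4 (6.19). Apobr and Olr1 bind lipoproteins, and they differed by 6.17 for Apobr, a receptor for apolipoprotein B, and by 6.14 for Olr1, the oxidized LDL receptor LOX-1. Among the 10 largest against endothelium alone were also Sh2d1b1, an adaptor of natural killer cells (5.90), and the inhibitory receptor gene Cd300a (5.83). Reads of Pirb, Lilrb4 and Ifitm6 may be shared with near-identical relatives, and their levels are uncertain for that reason.

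The genes lower by most, under the same exclusions, included growth regulators and genes of the matrix. Igf2, a fetal growth factor, was 25.8 and 11.3 in immune, 475 and 149 in endothelial and 30.6 and 34.3 in epithelial libraries (-2.38 ± 0.36, adjusted p = 0.000105), below all other libraries but not called against epithelium alone (-0.88 ± 0.42, adjusted p = 0.124). Plagl1, an imprinted zinc finger factor, was 5.09 and 2.70 in immune, 39.7 and 47.1 in endothelial and 13.9 and 19.4 in epithelial libraries (-2.55 ± 0.44, adjusted p = 0.000315). Fbln5, an elastic fiber protein, was 3.89 and 2.24 in immune, 24.2 and 27.1 in endothelial and 13.4 and 15.3 in epithelial libraries (-2.34 ± 0.17, adjusted p = 5.83e-08). Serpinh1, a collagen chaperone, was 16.2 and 3.64 in immune, 85.3 and 51.6 in endothelial and 41.3 and 20.8 in epithelial libraries (-2.34 ± 0.38, adjusted p = 0.000187). In all 4 genes the immune library of pool 2 was lower than that of pool 1. Aqp1, Mageh1, Adamts1, Prrg3, Grasp and Prkcdbp completed the group, with differences between -2.51 and -2.33.

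The promoters of the called genes were read for short sequence motifs. Spi1 encodes PU.1, an ETS family factor of myeloid and B cells, which binds purine-rich sequences around a GGAA core; Spi1 itself was 18.4 and 23.99 in immune, 0.0536 and 0.217 in endothelial and 0.069 and 0.0529 in epithelial libraries (4.33 ± 0.32, adjusted p = 5.56e-08). RefSeq promoters (GRCm38.p6, 250 bases before to 50 after the gene start) were found by symbol for 8715 of the 11569 genes tested, for 1352 of the 1781 higher and for 1729 of the 2370 lower genes. The 8 letters GAGGAAGT, on either strand, were in 3.28% of all 27025 RefSeq promoters and in 3.41% of those tested. They were in 7.77% of the promoters of higher genes, in 17.3% of the 226 with a log2 difference over 3 and in 2.43% of those of lower genes. Promoter composition moved with these groups: the median GC content was 60.67% for genes tested, 57.67% for higher genes, 50.67% for those over 3 and 63.33% for lower genes, and its part in the shares was not tested.

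Upstream stretches of 7 called genes are shown to display these letters in place, read 5′ to 3′ on the gene's strand, with the match on either strand in capitals. These genes were chosen after their values were seen, to cover complement (C1qc), neutrophil enzymes (Mmp8), inhibitory and lipid receptors (Pirb and Apobr), a monocyte surface protein (Ly6c2), a Toll-like receptor (Tlr1) and a calprotectin subunit (S100a8).
C1qc (chr4:136893082-136893129, minus strand): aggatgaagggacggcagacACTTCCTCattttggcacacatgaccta
Mmp8 (chr9:7558188-7558235, plus strand): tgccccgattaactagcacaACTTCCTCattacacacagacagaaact
Pirb (chr7:3720475-3720522, minus strand): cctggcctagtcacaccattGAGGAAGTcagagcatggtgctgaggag
Apobr (chr7:126584905-126584952, plus strand): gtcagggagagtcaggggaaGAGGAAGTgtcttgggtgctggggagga
Ly6c2 (chr15:75112052-75112099, minus strand): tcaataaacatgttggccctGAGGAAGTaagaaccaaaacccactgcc
Tlr1 (chr5:64933559-64933601, minus strand): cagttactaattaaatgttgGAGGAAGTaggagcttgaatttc
S100a8 (chr3:90668879-90668926, plus strand): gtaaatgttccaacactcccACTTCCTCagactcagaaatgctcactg
Counted from the RefSeq start, the match begins 195 bases upstream in C1qc, 221 in Mmp8, 120 in Pirb, 83 in Apobr, 108 in Ly6c2, 23 in Tlr1 and 172 in S100a8. The GENCODE gene bounds printed elsewhere start at other bases, and counted from those the match begins 44 bases upstream in C1qc, 79 in S100a8 and 17 in Apobr, where the last 11 bases shown lie inside the gene, as do the last 5 in Tlr1. It is read as GAGGAAGT in Pirb, Apobr, Ly6c2 and Tlr1 and as ACTTCCTC in C1qc, Mmp8 and S100a8. Reads of Ly6c2 may be shared with its near copy Ly6c1.

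In all, 12 motifs were searched after the data had been seen, several of them nested in others. The shorter AGGAAGT was in 9.57% of all promoters, 9.63% of those tested, 16.9% of higher, 32.3% of those over 3 and 6.94% of lower genes. GGAAGT stood at 24.1%, 29.7%, 34.5%, 46.9% and 19.4% in the same order, and GGAA alone at 95.9%, 95.7%, 96.7%, 98.7% and 93.3%. CCGGAAGT, another ETS-type sequence that overlaps GGAAGT, was in 4.00% of all, 8.43% of tested, 5.84% of higher, 1.77% of those over 3 and 3.88% of lower genes, with 10.5% of genes not called. TGTGGT, the core bound by RUNX factors, was in 16.9% of all, 12.7% of tested, 18.3% of higher, 28.3% of those over 3 and 10.7% of lower genes. For the remaining motifs the shares are of all promoters, of those tested, of higher genes and of those over 3, in this order. TTGCNNAA was in 10.8%, 8.62%, 11.8% and 35 of 226, and the rarer TTGCGCAA in 0.185%, 0.333%, 0.592% and 0.442%. TGAGTCA was in 5.17%, 3.47%, 4.66% and 7.08%, and a Maf recognition element that holds it in 0.137%, 0.115%, 0.0740% and 0 of 226. CACGTG was in 7.24%, 10.1%, 10.9% and 4.87%, and an interferon-stimulated response element in 0.252%, 0.333%, 0.518% and 0.442%. A match describes letters in a window and not a bound site.

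Macrophage and monocyte genes were higher throughout. All 20 tested members were called higher, with a median difference of 3.58, against -0.075 over all genes tested. Mpeg1 (chr19:12460779-12465283, plus strand), the pore-forming protein perforin-2, was 1355 and 2453 in immune, 3.89 and 11.9 in endothelial and 7.22 and 9.12 in epithelial libraries (7.75 ± 0.53, adjusted p = 2.54e-08). Ctss, the lysosomal protease cathepsin S, was 171 and 296 in immune, 0.429 and 1.12 in endothelial and 0.249 and 0.237 in epithelial libraries (7.26 ± 0.44, adjusted p = 7.48e-09). Cd68, a lysosomal membrane protein, was 648 and 1095 in immune, 4.15 and 8.70 in endothelial and 6.52 and 14.7 in epithelial libraries (6.59 ± 0.49, adjusted p = 6.17e-08). For these genes the immune libraries were far above the rest, and pool 2 was the higher of the 2 pools. The CSF-1 receptor gene Csf1r was 76.8 and 88.7 in immune, 0.815 and 1.39 in endothelial and 5.25 and 4.27 in epithelial libraries (4.59 ± 0.45, adjusted p = 1.09e-06), and Adgre1, which encodes F4/80, was 3.04 and 3.76 in immune, 0.0142 and 0.0141 in endothelial and 0.00262 and 0 in epithelial libraries (2.12 ± 0.23, adjusted p = 4.32e-06).

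The chemokine receptor genes Ccr2 and Cx3cr1 were both present in the immune fraction. Ccr2 was 91.2 and 105 in immune, 0.694 and 0.802 in endothelial and 0.842 and 0.648 in epithelial libraries (5.83 ± 0.38, adjusted p = 1.63e-08), and Cx3cr1 was 15.4 and 10.6 in immune, 0.0388 and 0.18 in endothelial and 0.0667 and 0.0383 in epithelial libraries (3.67 ± 0.44, adjusted p = 9.67e-06). Mrc1, the mannose receptor, was 29.99 and 23.5 in immune, 2.46 and 3.50 in endothelial and 0.0941 and 0.0757 in epithelial libraries (3.73 ± 0.39, adjusted p = 2.23e-06). Trem2, a lipid-sensing receptor, differed by 3.17, Mertk, a receptor for dying cells, by 2.19, and the haemoglobin scavenger receptor Cd163 by 1.57. All of these were called and did not overlap with the other fractions.

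Some members were shared with another fraction. Lyz2, lysozyme M, was 5812 and 7761 in immune, 135 and 290.3 in endothelial and 3291 and 2992 in epithelial libraries; it was called against endothelium (5.08 ± 0.52, adjusted p = 1.83e-06) and not against epithelium (1.10 ± 0.52, adjusted p = 0.121), where the pools as a block gave an adjusted p = 0.0478. Cd14, the LPS co-receptor, was 23.4 and 44.4 in immune, 0.435 and 2.18 in endothelial and 13.7 and 19.9 in epithelial libraries, and likewise was called against endothelium (3.96 ± 0.60, adjusted p = 7.38e-05) but not against epithelium (0.93 ± 0.60, adjusted p = 0.259). Apoe differed between pools more than most, at 152 and 589 in immune libraries against 14.7 and 11.5 and 31.3 and 24.3 in the others (3.91 ± 0.49, adjusted p = 1.61e-05).

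Genes of mature alveolar macrophages were already high at P7. Of 17 tested members, 14 were called higher, with a median difference of 4.87. Ear1 (chr14:43818765-43875517, minus strand) and Ear2 (chr14:44102654-44103534, plus strand), eosinophil-associated ribonucleases that mouse alveolar macrophages also make, had the largest differences of the list. Ear1 was 1613 and 1416 in immune, 4.06 and 7.72 in endothelial and 3.55 and 1.15 in epithelial libraries (8.37 ± 0.72, adjusted p = 2.95e-07), and Ear2 was 2870.4 and 2996 in immune, 5.79 and 14.4 in endothelial and 1.86 and 4.85 in epithelial libraries (8.82 ± 0.91, adjusted p = 2.1e-06). Both were at like levels in the 2 pools; reads of this family of near copies may be shared, so each level is uncertain.

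Surface markers of the same cells were high as well. Siglecf, the lectin used to sort alveolar macrophages, was 34.5 and 23.9 in immune, 0 and 0.0723 in endothelial and 0 and 0 in epithelial libraries (4.87 ± 0.41, adjusted p = 2.4e-07). Itgax, the integrin CD11c, was 43.2 and 36.4 in immune, 0.0241 and 0.153 in endothelial and 0.0233 and 0 in epithelial libraries (5.28 ± 0.41, adjusted p = 8.8e-08). Marco, a scavenger receptor, was 17.1 and 20.4 in immune, 0.0333 and 0.125 in endothelial and 0.0214 and 0.0246 in epithelial libraries (4.23 ± 0.39, adjusted p = 6.84e-07). In endothelial and epithelial libraries all 3 were at most 0.153, and the immune libraries lay apart from them. Chil3, the chitinase-like protein Ym1, was higher in pool 2, at 64.9 and 219 in immune libraries and at most 0.470 elsewhere (6.62 ± 0.69, adjusted p = 2.28e-06).

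Both chains of the GM-CSF receptor were among them. Csf2ra was 174 and 257 in immune, 3.54 and 4.24 in endothelial and 7.53 and 9.79 in epithelial libraries (4.96 ± 0.45, adjusted p = 4.84e-07), and Csf2rb was 88.3 and 138 in immune, 1.52 and 2.49 in endothelial and 0.678 and 1.92 in epithelial libraries (5.44 ± 0.44, adjusted p = 1.63e-07). The ligand gene Csf2 was the other way round, at 1.44 and 0.812 in immune, 0.0966 and 0.894 in endothelial and 5.72 and 8.19 in epithelial libraries; it was called lower than in epithelium (-1.90 ± 0.37, adjusted p = 0.000807). Pparg, the lipid regulator that GM-CSF induces, was low but above the other fractions, at 1.52 and 1.40 in immune, 0.197 and 0.0751 in endothelial and 0.0696 and 0.0601 in epithelial libraries (1.16 ± 0.20, adjusted p = 0.000273). Atp6v0d2, a proton pump subunit, was 50.6 and 87.6 in immune, 0.167 and 0.495 in endothelial and 0.193 and 0.323 in epithelial libraries (5.71 ± 0.39, adjusted p = 2.44e-08). Cidec, a lipid droplet protein, was 8.92 and 5.42 in immune libraries and listed at 0 in the other 4. Plet1, a surface protein, was 180.2 and 172 in immune, 0.823 and 1.61 in endothelial and 7.90 and 13.1 in epithelial libraries (5.16 ± 0.43, adjusted p = 2.18e-07), and Lpl, lipoprotein lipase, was called too (2.87). Fabp4, Fabp5 and Car4 were not called; Fabp4 was 9.35 and 2.27 in immune, 188 and 5.90 in endothelial and 7.03 and 0.0592 in epithelial libraries, so that its highest value was in an endothelial library.

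**Figure D3:**
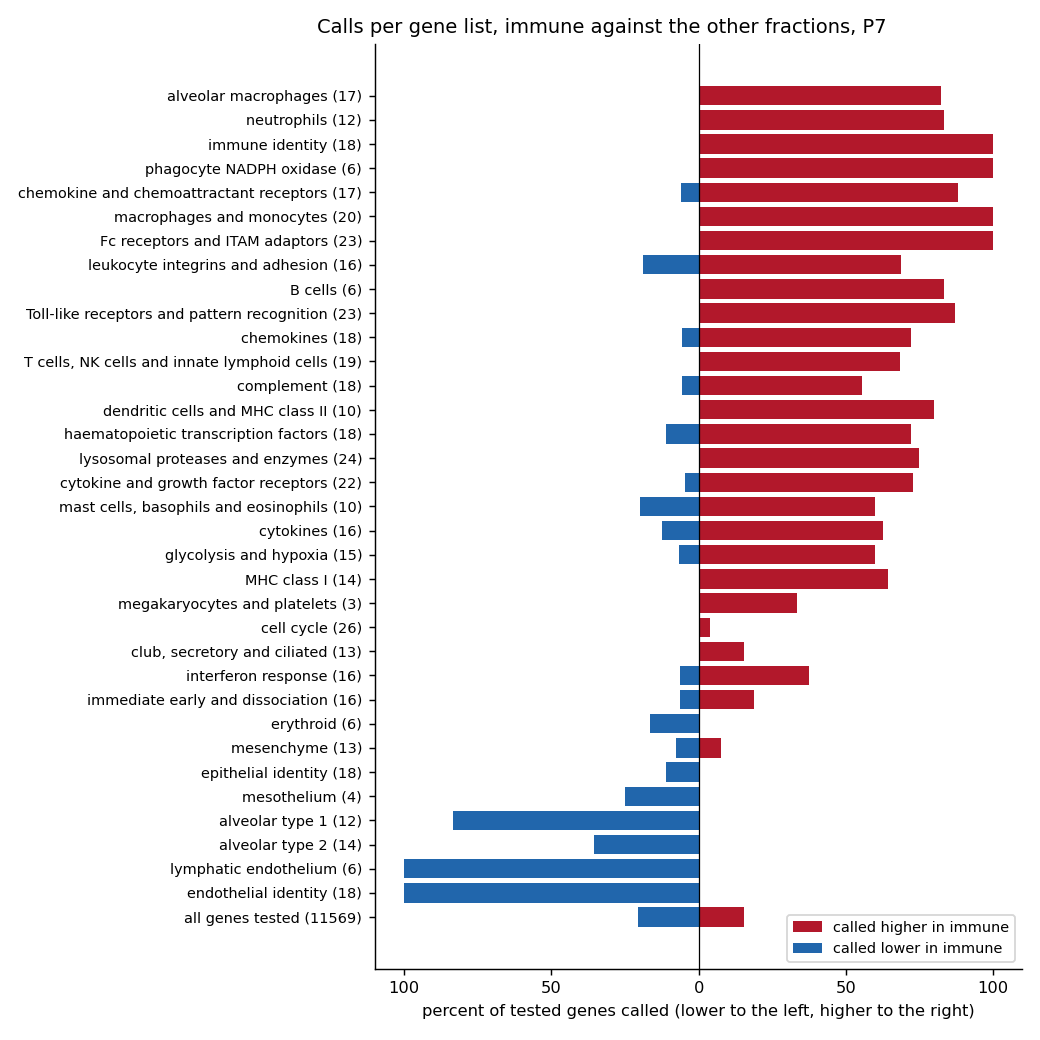
For each gene list, the percentage of tested members called higher (right, red) or lower (left, blue) in immune libraries against the mean of the other fractions at P7, ordered by the median difference, with the number tested in brackets. The bottom bar gives all 11569 genes tested, 15.4% higher and 20.5% lower.

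Neutrophil genes were high, and more so in pool 2. Of 12 tested members, 10 were called higher, with a median difference of 4.82. S100a8 (chr3:90668978-90670035, plus strand) and S100a9 (chr3:90692632-90695721, minus strand), the 2 subunits of calprotectin, were 709 and 1677 in immune, 6.32 and 11.9 in endothelial and 3.90 and 2.60 in epithelial libraries (7.42 ± 0.57, adjusted p = 8.82e-08) and 453 and 719.8 in immune, 3.94 and 4.85 in endothelial and 2.17 and 2.51 in epithelial libraries (7.08 ± 0.31, adjusted p = 2.06e-10). Cxcr2, the receptor for neutrophil chemokines, was 48.1 and 145 in immune, 1.14 and 1.75 in endothelial and 0.519 and 0.415 in epithelial libraries (5.49 ± 0.43, adjusted p = 1.22e-07). Immune libraries stood apart in each case, and the pool 2 library was the higher.

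Genes of secondary granules were called higher, while the primary granule genes Mpo and Elane were low and less firm. Ngp, Camp and Ltf belong to secondary granules, which form late in neutrophil development; Ngp was 162 and 336 in immune, 0.951 and 2.57 in endothelial and 0.817 and 1.33 in epithelial libraries (6.65 ± 0.58, adjusted p = 3.48e-07) and Camp was 20.3 and 18.8 in immune, 0.488 and 0 in endothelial and 0 and 0 in epithelial libraries (4.22 ± 0.35, adjusted p = 1.91e-07). The matrix metalloproteinase genes Mmp8 (5.13) and Mmp9 (4.36) and the resistin-like gene Retnlg (5.94) were called too. Mpo, the myeloperoxidase of primary granules, was 0.931 and 4.34 in immune, 0.143 and 1.82 in endothelial and 0 and 0.354 in epithelial libraries and was not called (1.15 ± 0.57, adjusted p = 0.136). With the pools as a block it was called (adjusted p = 0.0404), as were all 12 tested neutrophil genes. Elane, another primary granule gene, reached 1 in 1 library only and was not tested, at 0 and 7.29 in immune libraries. Lcn2, lipocalin 2, was 87.9 and 262 in immune, 10.2 and 45.5 in endothelial and 192 and 396 in epithelial libraries, and immune and epithelial libraries overlapped; it was called against endothelium (2.74 ± 0.59, adjusted p = 0.0017). With the pools as a block Lcn2 was also called against the mean of both (0.94, adjusted p = 0.0111) and as lower than epithelium (-0.86, adjusted p = 0.0358).

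The stefin A genes encode cysteine protease inhibitors that neutrophils make in quantity. Stfa2l1 was 201 and 803 in immune, 1.73 and 6.23 in endothelial and 0.828 and 1.12 in epithelial libraries (7.09 ± 0.44, adjusted p = 1.02e-08), and Stfa2 was 117 and 355 in immune, 0.862 and 1.86 in endothelial and 0.296 and 0.794 in epithelial libraries (6.77 ± 0.34, adjusted p = 7.76e-10). Stfa1 (5.58) and Stfa3 (4.86) were called higher as well. Wfdc17, a small secreted protein of activated macrophages and neutrophils, was uneven between pools, at 53.9 and 564 in immune, 0 and 3.45 in endothelial and 1.03 and 0.792 in epithelial libraries (6.45 ± 0.82, adjusted p = 1.83e-05). The Stfa genes are near copies in 1 cluster, and reads may be split among them.

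Antigen presentation through MHC class II was shared with the epithelium. Of 10 tested members, 8 were called higher than the mean of the others, 9 higher and 1 lower than endothelium but 4 higher than epithelium; the median difference was 1.98 against the mean of both. H2-Aa was 209.8 and 119 in immune, 14.2 and 20.6 in endothelial and 149 and 103 in epithelial libraries, called against endothelium (3.13 ± 0.61, adjusted p = 0.000769) but not against epithelium (0.35 ± 0.61, adjusted p = 0.707). H2-Ab1, its beta chain, was 202 and 108 in immune, 14.8 and 20.6 in endothelial and 70.1 and 53.6 in epithelial libraries, with the same pattern (3.01 ± 0.54, adjusted p = 0.000386 and 1.26 ± 0.54, adjusted p = 0.0881). Cd74, the invariant chain, was 319.97 and 261 in immune, 16.8 and 72.8 in endothelial and 299 and 472 in epithelial libraries, so that the pool 2 epithelial library was above both immune libraries. H2-DMa, which loads peptides onto class II, was 21.4 and 11.1 in immune, 1.06 and 0.415 in endothelial and 3.83 and 1.65 in epithelial libraries and was called against both (2.73 ± 0.34, adjusted p = 1.65e-05). Genes of dendritic cells were low and near 0 elsewhere. Xcr1, a receptor of cross-presenting dendritic cells, was 5.55 and 3.61 in immune, 0.131 and 0.0302 in endothelial and 0.0338 and 0 in epithelial libraries (2.39 ± 0.23, adjusted p = 8.86e-07), and Ccr7, a homing receptor of migrating ones, was 11.3 and 9.29 in immune, 0.233 and 0.081 in endothelial and 0.226 and 0 in epithelial libraries (3.32 ± 0.20, adjusted p = 6.87e-09). Clec9a, known from the same cells as Xcr1, was 5.16 and 3.09 in immune, 19.04 and 22.1 in endothelial and 2.42 and 3.77 in epithelial libraries and was called lower than in endothelium (-2.10 ± 0.49, adjusted p = 0.0032).

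B cell genes were called higher in 5 of 6 tested members, with a median of 2.98. Ms4a1, which encodes CD20, was 7.86 and 3.93 in immune, 0.457 and 0.208 in endothelial and 0.0105 and 0 in epithelial libraries (2.52 ± 0.31, adjusted p = 1.23e-05). Cd79a, a signaling chain of the B cell receptor, was 17.9 and 11.6 in immune, 1.35 and 0.627 in endothelial and 0.209 and 0.374 in epithelial libraries (3.28 ± 0.33, adjusted p = 1.54e-06). Cd79b, the partner chain of Cd79a, was 41.2 and 22.8 in immune, 2.07 and 1.11 in endothelial and 8.57 and 8.56 in epithelial libraries (2.68 ± 0.40, adjusted p = 8.84e-05). In all 3 the immune libraries were the highest, and pool 1 exceeded pool 2. Cd22, an inhibitory receptor, was even between pools at 12.5 and 11.8 (3.60 ± 0.37, adjusted p = 2.22e-06). Outside the list, Tnfrsf13c, the receptor for the survival factor BAFF, was 61.3 and 49.2 in immune, 1.67 and 0.907 in endothelial and 0.126 and 0 in epithelial libraries (5.18 ± 0.53, adjusted p = 1.89e-06).

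T cell, natural killer cell and innate lymphoid genes were called in 13 of 19 tested members, with a median of 2.17. Cd3e, a chain of the T cell receptor complex, was 19.7 and 22.9 in immune, 0.492 and 0.352 in endothelial and 0.0302 and 0.0693 in epithelial libraries (4.19 ± 1.00, adjusted p = 0.00384), and Cd4 was 7.67 and 8.48 in immune, 0.27 and 0.137 in endothelial and 0.0139 and 0.032 in epithelial libraries (3.03 ± 0.58, adjusted p = 0.00071). Immune libraries lay apart for both, at even levels in the pools. Cd8a was 11.4 and 11.1 in immune, 0.221 and 0.307 in endothelial and 0.0569 and 0 in epithelial libraries, equally apart; its call (3.42 ± 1.05, adjusted p = 0.0176) ended when either immune library was left out, with an adjusted p of up to 0.0983. The variance of each gene was estimated over all ages together, and immune libraries of other ages were uneven: the summed T cell list was 25.7 and 530.3 at E16.5 and 1899.5 and 700.6 at P28, against 186.8 and 184.2 at P7.

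Cytotoxic genes were apart from the other fractions too. Nkg7, a granule protein, was 58.2 and 48.4 in immune, 1.37 and 0 in endothelial and 0 and 0 in epithelial libraries (5.45 ± 0.57, adjusted p = 2.23e-06). Gzma was 12.4 and 10.9 in immune, 0.106 and 0 in endothelial and 0.0457 and 0.21 in epithelial libraries (3.54 ± 0.48, adjusted p = 3.26e-05), and Gzmb was 9.92 and 14.9 in immune, 0.821 and 0.691 in endothelial and 0 and 0.147 in epithelial libraries (3.26 ± 0.46, adjusted p = 4.36e-05). Ncr1, the natural killer receptor NKp46, was low, at 1.99 and 1.98 in immune, 0 and 0.079 in endothelial and 0 and 0 in epithelial libraries (1.55 ± 0.25, adjusted p = 0.000189). Il7r, the interleukin-7 receptor of lymphoid cells, differed by 2.95 and Il1rl1, the interleukin-33 receptor ST2, by 1.49. Thy1 and Tcf7 were shared with endothelium: Thy1 was 26.8 and 25.9 in immune, 25.4 and 19.7 in endothelial and 0.787 and 0.386 in epithelial libraries and Tcf7 was 7.35 and 7.07 in immune, 5.92 and 7.40 in endothelial and 1.06 and 1.48 in epithelial libraries, and neither was called against the mean of both fractions.

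Connective tissue mast cell proteases marked the immune fraction, above all in pool 1. Mcpt4 (chr14:56059629-56062313, minus strand), a chymase, was 69.4 and 29.9 in immune, 0.693 and 0.916 in endothelial and 0 and 0.0976 in epithelial libraries (5.08 ± 0.27, adjusted p = 1.63e-09). Cma1, another chymase, was 30.7 and 11.8 in immune, 0.0791 and 0 in endothelial and 0.0509 and 0 in epithelial libraries (4.29 ± 0.32, adjusted p = 5.85e-08), and the tryptase Tpsb2 was 30.7 and 12.5 in immune, 0.144 and 0 in endothelial and 0 and 0 in epithelial libraries (4.32 ± 0.30, adjusted p = 2.78e-08). The immune libraries did not overlap with the others, and each of the 3 genes was over 2 times higher in pool 1 than in pool 2. Proteases of these families have near copies, and single levels are uncertain. Cpa3, carboxypeptidase A, differed by 2.15. The list as a whole was mixed, with 6 of 10 tested members higher and 2 lower. Kit and Gata2 were the lower ones and were highest in endothelium, at 22.2 and 31.7 for Kit and 69.1 and 83.1 for Gata2, against 5.15 and 2.87 and 12.1 and 7.17 in immune libraries. The call of Gata2 (-1.28 ± 0.34, adjusted p = 0.00785) ended without the pool 2 immune library (adjusted p = 0.144), and that of Kit (-0.999 ± 0.32, adjusted p = 0.0227) without either that library or the pool 2 endothelial or epithelial library (adjusted p of up to 0.276).

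Platelet and red cell genes were mostly not called, with 1 of 3 tested platelet genes higher and 1 of 6 tested red cell genes lower. Over all genes tested the shares were 15.4% higher and 20.5% lower. Pf4, a platelet chemokine that macrophages can also carry, was 85.8 and 54.04 in immune, 1.87 and 3.10 in endothelial and 2.07 and 1.58 in epithelial libraries (4.47 ± 0.54, adjusted p = 1.13e-05), while Ppbp, from the same platelet granules, was 9.99 and 5.95 in immune, 6.42 and 9.33 in endothelial and 2.23 and 4.22 in epithelial libraries and was not called. Hbb-bs and Hbb-bt, adult beta globins, were 26.8 and 4.74 and 24.8 and 2.05 in immune libraries and were not called against the mean of both; both were higher in pool 1 of each fraction. Car2, a carbonic anhydrase of red cells and epithelium, was the lower one, at 15.48 and 8.48 in immune, 34.8 and 69.01 in endothelial and 25.9 and 28.3 in epithelial libraries (-1.59 ± 0.28, adjusted p = 0.000395). Globin genes are near copies, and their single levels are uncertain.

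Transcription factors of blood cells were called higher in 13 of 18 tested members and lower in 2, with a median of 1.97. Ikzf1, a lymphoid and myeloid zinc finger factor, was 16.5 and 20.3 in immune, 0.207 and 0.517 in endothelial and 0.434 and 1.00 in epithelial libraries (3.67 ± 0.25, adjusted p = 2.78e-08), and Irf8, of monocytes and dendritic cells, was 16.7 and 15.3 in immune, 1.31 and 1.16 in endothelial and 0.265 and 0.123 in epithelial libraries (3.38 ± 0.27, adjusted p = 1.57e-07). Irf5 (3.82), Irf4 (3.20) and Cebpb (3.08) were called as well. Bhlhe41, a factor of alveolar macrophages, was 71.5 and 94.3 in immune, 0.849 and 1.72 in endothelial and 3.14 and 8.66 in epithelial libraries (4.46 ± 0.49, adjusted p = 4.01e-06). Immune libraries were the highest in all of these.

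Several factors with roles in other lineages overlapped. Klf4, of monocytes and endothelium, was 87.8 and 64.7 in immune, 225 and 154 in endothelial and 33.4 and 19.99 in epithelial libraries, with the endothelial libraries highest, and was called against epithelium (1.51 ± 0.50, adjusted p = 0.0292). Maf was 41.4 and 55.8 in immune, 38.1 and 54.8 in endothelial and 3.68 and 6.12 in epithelial libraries, at the endothelial level, and was called against epithelium (3.09 ± 0.37, adjusted p = 1.22e-05) and not against endothelium (0.07 ± 0.37, adjusted p = 0.904). Cebpa, needed for both granulocytes and alveolar epithelium, was 37.04 and 33.8 in immune, 2.79 and 9.80 in endothelial and 80.95 and 86.4 in epithelial libraries, and was called against endothelium (2.51 ± 0.60, adjusted p = 0.00377), a call that ended without the pool 1 endothelial library (adjusted p = 0.0651). Against epithelium it was called lower only with the pools as a block (-1.22, adjusted p = 0.0453). Tal1, a factor of blood and endothelium, was 2.54 and 2.66 in immune, 18.9 and 28.2 in endothelial and 1.49 and 1.81 in epithelial libraries and was lower in immune libraries (-1.15 ± 0.25, adjusted p = 0.00177). Lyl1, its relative, was 22.9 and 22.8 in immune, 11.6 and 10.005 in endothelial and 1.76 and 1.69 in epithelial libraries (2.08 ± 0.35, adjusted p = 0.00024), and was called against endothelium (1.02 ± 0.40, adjusted p = 0.061) only with the pools as a block (adjusted p = 0.0299). The other lower call was Bach2, a B cell repressor, at 1.93 and 1.62 in immune, 4.55 and 7.45 in endothelial and 1.45 and 2.49 in epithelial libraries (-0.69 ± 0.22, adjusted p = 0.0218).

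Chemokine genes were called higher in 13 of 18 tested members and lower in 1. Ccl6 (chr11:83587882-83593087, minus strand), a macrophage and neutrophil chemokine, was 455 and 489 in immune, 0.879 and 2.71 in endothelial and 0.409 and 0.289 in epithelial libraries (7.97 ± 0.49, adjusted p = 9.15e-09). Ccl3, which attracts monocytes and lymphocytes, was 45.6 and 66.4 in immune, 1.98 and 3.63 in endothelial and 0.213 and 0.163 in epithelial libraries (4.74 ± 0.43, adjusted p = 5.98e-07). Ccl9 was 66.6 and 109.6 in immune, 1.82 and 1.70 in endothelial and 0.458 and 0.394 in epithelial libraries (5.45 ± 0.47, adjusted p = 3.31e-07). Ccl17 and Ccl22, ligands of CCR4 made by dendritic cells and macrophages, differed by 3.97 and 4.03. Ccl12 was 10.1 and 19.7 in immune libraries and listed at 0 in the other 4. Cxcl15, a chemokine known as lungkine from lung epithelium, was 152 and 58.4 in immune, 45.1 and 106 in endothelial and 1233.4 and 1140.1 in epithelial libraries and was lower than in epithelium (-3.64 ± 0.72, adjusted p = 0.000945). Cxcl12, the ligand of CXCR4, was the one called lower against the mean of both, at 24.4 and 7.08 in immune, 257 and 212 in endothelial and 17.9 and 13.2 in epithelial libraries (-2.11 ± 0.44, adjusted p = 0.00133), a call that ended without the pool 2 immune library (adjusted p = 0.0673).

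The receptors for these signals were called higher in 15 of 17 tested members and lower in 1, with a median of 3.68. The formyl peptide receptors Fpr1 and Fpr2, which guide phagocytes to bacteria, were 42.8 and 67.2 in immune, 0.136 and 0.511 in endothelial and 0.0657 and 0 in epithelial libraries (5.55 ± 0.42, adjusted p = 8.1e-08) and 58.9 and 79.4 in immune, 0.332 and 0.288 in endothelial and 0.107 and 0.245 in epithelial libraries (5.81 ± 0.43, adjusted p = 5.48e-08). C5ar1, the receptor for complement C5a, was 49.9 and 68.5 in immune, 0.238 and 0.413 in endothelial and 0.0767 and 0.235 in epithelial libraries (5.59 ± 0.35, adjusted p = 1.14e-08), and C3ar1 differed by 5.07. Ccr1 (4.15) and Cxcr3, a chemokine receptor of T cells (3.11), were called higher as well. Cxcr4 overlapped with endothelium, at 43.1 and 83.5 in immune, 56.98 and 53.5 in endothelial and 7.26 and 7.27 in epithelial libraries. Ackr3, a scavenger of CXCL12, was lower in immune libraries, at 6.09 and 5.48 in immune, 96.2 and 125 in endothelial and 4.90 and 7.21 in epithelial libraries (-2.04 ± 0.29, adjusted p = 6.16e-05).

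Cytokine genes were called higher in 10 of 16 tested members and lower in 2. Il1b was 22.8 and 29.3 in immune, 0.272 and 0.225 in endothelial and 0 and 0.0766 in epithelial libraries (4.56 ± 0.33, adjusted p = 4.6e-08), and Il1a was 11.8 and 23.5 in immune, 0.238 and 0.142 in endothelial and 0 and 0.0484 in epithelial libraries (4.00 ± 0.33, adjusted p = 1.84e-07). Il1rn, the natural antagonist of both, was 95.8 and 99.9 in immune, 0.122 and 0.402 in endothelial and 0.212 and 0.0685 in epithelial libraries (6.37 ± 0.40, adjusted p = 1.03e-08). Tnf was 22.8 and 33.6 in immune, 1.15 and 0.334 in endothelial and 0 and 0 in epithelial libraries (4.46 ± 0.33, adjusted p = 5.3e-08). For all 4 the immune libraries were high and the other libraries at most 1.15. Osm (2.64), Il18 (2.74) and Il16 (1.53) were called too. Il33, an alarmin of alveolar epithelium, was lower at 1.48 and 0.48 in immune, 0.977 and 1.91 in endothelial and 11.8 and 10.4 in epithelial libraries (-1.49 ± 0.24, adjusted p = 0.00015), as was the stem cell factor gene Kitl, at 3.19 and 2.13 in immune, 19.6 and 29.6 in endothelial and 2.76 and 4.23 in epithelial libraries (-1.54 ± 0.22, adjusted p = 6.05e-05).

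Cytokine receptors split between blood cell receptors and shared ones, with 16 of 22 tested members higher and 1 lower. Il17ra was 132 and 143 in immune, 4.94 and 6.35 in endothelial and 9.35 and 10.7 in epithelial libraries (4.02 ± 0.27, adjusted p = 2.19e-08), and Tnfrsf1b, TNF receptor 2, was 42.7 and 67.3 in immune, 1.26 and 0.801 in endothelial and 0.294 and 0.566 in epithelial libraries (5.01 ± 0.38, adjusted p = 8.07e-08). Csf3r, the G-CSF receptor of neutrophils, was 18.7 and 31.6 in immune, 0.175 and 0.116 in endothelial and 0.121 and 0.0495 in epithelial libraries (4.51 ± 0.38, adjusted p = 2.1e-07). Il10ra (3.48) and Il6ra (2.85) also passed. Il2rg, the common gamma chain of lymphoid cytokine receptors, was at a like level in endothelium, at 127 and 124 in immune, 151 and 130.3 in endothelial and 14.3 and 9.58 in epithelial libraries, and was not called against it (-0.16 ± 0.54, adjusted p = 0.851). Il1r1, the interleukin-1 receptor, was the lower one, at 1.42 and 2.26 in immune, 2.22 and 3.78 in endothelial and 3.20 and 7.28 in epithelial libraries (-0.77 ± 0.23, adjusted p = 0.0141). Tgfbr2 and Ifnar1 were not called against the mean of both, with differences of -0.09 and -0.20.

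Sensors of microbial products were called higher in 20 of 23 tested members, with a median of 2.95. Clec7a, the beta-glucan receptor dectin-1, was 89.8 and 74.6 in immune, 0.0908 and 0.499 in endothelial and 0.0731 and 0.0448 in epithelial libraries (6.15 ± 0.43, adjusted p = 3.71e-08). Tlr13, a sensor of bacterial ribosomal RNA, was 32.7 and 71.3 in immune, 0.236 and 0.461 in endothelial and 0.218 and 0.175 in epithelial libraries (5.28 ± 0.39, adjusted p = 5.3e-08), and Tlr2, a sensor of lipopeptides, was 54.3 and 72.3 in immune, 2.24 and 2.59 in endothelial and 0.582 and 0.751 in epithelial libraries (4.74 ± 0.39, adjusted p = 1.87e-07). Tlr7 (4.50), Tlr9 (4.70) and Tlr8 (3.60), which bind nucleic acids in endosomes, were called too. Nlrp3, an inflammasome sensor, was 3.97 and 6.01 in immune libraries and listed at 0 in the other 4. Tlr3 was highest in endothelium, at 8.90 and 7.70 in immune, 26.3 and 30.7 in endothelial and 6.61 and 8.86 in epithelial libraries (-1.66 ± 0.41, adjusted p = 0.00432 against endothelium), and Tlr5 was shared with epithelium, at 2.59 and 2.49 in immune, 0.406 and 0.539 in endothelial and 3.15 and 4.09 in epithelial libraries.

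Fc receptors and their signaling partners were called higher in 23 of 23 tested members, with a median of 3.34. Fcer1g, the common signaling chain of Fc receptors, was 354 and 569.8 in immune, 3.56 and 4.86 in endothelial and 1.37 and 1.15 in epithelial libraries (7.04 ± 0.45, adjusted p = 1.14e-08). Pilra, an inhibitory receptor of myeloid cells, was 69.7 and 57.7 in immune, 0.444 and 0.257 in endothelial and 0.29 and 0.0935 in epithelial libraries (5.67 ± 0.40, adjusted p = 3.75e-08). Fcgr3 (5.17), Fcgr1 (3.49) and the inhibitory Fcgr2b (3.48) were apart from the other libraries. Lcp2, the adaptor SLP-76, was 20.2 and 28.97 in immune, 0.146 and 0.241 in endothelial and 0.0762 and 0.117 in epithelial libraries (4.46 ± 0.15, adjusted p = 1.41e-11). Sirpa, which binds the signal CD47 on other cells, was 59.1 and 69.03 in immune, 4.46 and 4.58 in endothelial and 1.24 and 1.61 in epithelial libraries (4.15 ± 0.40, adjusted p = 1.04e-06). Fcgrt, the neonatal Fc receptor, and the kinase Lyn were not called against endothelium alone, at 1.10 and 0.53.

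Complement genes were called higher in 10 of 18 tested members and lower in 1, Cd59a (-0.87), a protector of the body's own cells. The 3 chains of C1q lie side by side on chromosome 4, C1qb at chr4:136880129-136886187, minus strand, C1qc at chr4:136889804-136893065, minus strand and C1qa at chr4:136895917-136898803, minus strand. C1qb was 42.7 and 53.5 in immune, 0 and 0.146 in endothelial and 0.108 and 0.0415 in epithelial libraries (5.51 ± 0.25, adjusted p = 2.81e-10), C1qc was 62.3 and 105 in immune, 0.326 and 0.283 in endothelial and 0 and 0 in epithelial libraries (6.16 ± 0.29, adjusted p = 4.66e-10) and C1qa was 7.75 and 6.49 in immune, 0 and 0 in endothelial and 0.223 and 0 in epithelial libraries (2.94 ± 0.21, adjusted p = 4.54e-08). All 3 were near 0 outside the immune fraction, with no overlap. Cfb, factor B of the alternative pathway, was 46.8 and 110.6 in immune, 2.40 and 10.7 in endothelial and 4.32 and 14.6 in epithelial libraries (3.27 ± 0.58, adjusted p = 0.000406), and Cfp, properdin, was 32.8 and 37.03 in immune, 0.763 and 0.932 in endothelial and 0.983 and 0.753 in epithelial libraries (4.27 ± 0.29, adjusted p = 2.29e-08). C3 was present in all fractions, at 63.3 and 90.6 in immune, 26.9 and 73.5 in endothelial and 39.4 and 68.996 in epithelial libraries, and was not called (0.64 ± 0.50, adjusted p = 0.352).

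The phagocyte oxidase, which makes superoxide, was called higher in 6 of 6 subunit genes, with a median of 4.15. Its membrane subunit Cybb was 134 and 188 in immune, 0.552 and 1.30 in endothelial and 0.259 and 0.235 in epithelial libraries (6.70 ± 0.43, adjusted p = 1.53e-08), and the cytosolic subunit Ncf1 was 65.01 and 74.3 in immune, 1.06 and 1.26 in endothelial and 2.34 and 5.65 in epithelial libraries (4.47 ± 0.43, adjusted p = 1.03e-06). Ncf4 (2.23) and Cyba (2.45) were apart from the other libraries as well.

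Leukocyte integrins followed the same lines, with 11 of 16 tested adhesion genes higher and 3 lower. Itgb2, the shared beta 2 chain, was 85.8 and 95.2 in immune, 0.338 and 0.574 in endothelial and 0.477 and 0.149 in epithelial libraries (6.05 ± 0.32, adjusted p = 1.42e-09). Its partners Itgam (5.69), Itgax (5.28) and Itgal (5.23) were called too. Cd44, a hyaluronan receptor, was 54.9 and 81.7 in immune, 5.24 and 9.24 in endothelial and 4.30 and 7.83 in epithelial libraries (3.20 ± 0.42, adjusted p = 2.32e-05). Icam2, a ligand for leukocyte integrins, was highest in endothelium, at 11.6 and 6.90 in immune, 90.2 and 67.1 in endothelial and 9.42 and 5.28 in epithelial libraries, and Icam1 in epithelium, at 25.4 and 21.1 in immune, 17.4 and 29.5 in endothelial and 72.99 and 83.3 in epithelial libraries. Itgb1 was 39.9 and 29.7 in immune, 96.4 and 89.8 in endothelial and 37.3 and 36.4 in epithelial libraries. The lower calls of these last 3 genes (-1.34, -0.84 and -0.75) all ended without the pool 2 immune library, with adjusted p-values of up to 0.115, 0.217 and 0.276 when 1 library was left out.

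Lysosomal genes were called higher in 18 of 24 tested members, with a median of 1.72, and most were also found in the other fractions. Ctsd, cathepsin D, was 836 and 2036 in immune, 120.3 and 152 in endothelial and 75.1 and 95.000 in epithelial libraries (3.60 ± 0.42, adjusted p = 7.11e-06). Psap, a carrier of sphingolipid enzymes, was 135 and 284 in immune, 23.2 and 20.8 in endothelial and 10.4 and 9.06 in epithelial libraries (3.65 ± 0.34, adjusted p = 6.17e-07), and Lipa, acid lipase, was 61.4 and 98.6 in immune, 10.6 and 13.6 in endothelial and 5.61 and 7.74 in epithelial libraries (2.99 ± 0.32, adjusted p = 2.72e-06). Grn, progranulin, was 298 and 509 in immune, 149 and 152 in endothelial and 98.6 and 91.5 in epithelial libraries (1.70 ± 0.37, adjusted p = 0.00196), a call that ended without the pool 2 immune library (adjusted p = 0.0604). For these 4 genes the immune libraries were the highest and pool 2 exceeded pool 1. Lamp1 and Lamp2 were not called, at 0.75 and 0.35; with the pools as a block Lamp1 was (adjusted p = 0.0325). Ctsh was 35.5 and 47.8 in immune, 13.01 and 29.6 in endothelial and 84.4 and 176 in epithelial libraries, highest in epithelium. Outside the list, Gpnmb, a glycoprotein of lipid-laden macrophages, was 28.4 and 240.1 in immune, 0.0703 and 1.46 in endothelial and 0.106 and 0.15 in epithelial libraries (5.96 ± 0.62, adjusted p = 2.23e-06), and Spp1, osteopontin, was 39.9 and 140.3 in immune, 0.0427 and 1.33 in endothelial and 0.055 and 0.548 in epithelial libraries (5.75 ± 0.60, adjusted p = 2.23e-06).

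MHC class I genes were at the endothelial level and above the epithelial level. Of 14 tested members, 11 were called higher than epithelium, with a median of 1.42. Against endothelium the median was 0.09, and 2 members, H2-Q4 and H2-Q7, were called lower. B2m, the common light chain, was 1232.6 and 1779 in immune, 928 and 1360.4 in endothelial and 182 and 249 in epithelial libraries (2.79 ± 0.35, adjusted p = 1.77e-05 against epithelium, 0.40 ± 0.35, adjusted p = 0.417 against endothelium). H2-D1 was 565 and 624 in immune, 433 and 438 in endothelial and 179 and 211 in epithelial libraries (1.61 ± 0.35, adjusted p = 0.00199 and 0.45 ± 0.35, adjusted p = 0.359 in the same order). Psmb8, an immunoproteasome subunit, was 72.6 and 60.3 in immune, 47.9 and 46.1 in endothelial and 12.9 and 8.38 in epithelial libraries (2.55 ± 0.37, adjusted p = 6.09e-05 and 0.48 ± 0.37, adjusted p = 0.338). H2-K1 was 382 and 510.5 in immune, 308 and 510.03 in endothelial and 163 and 198 in epithelial libraries, and H2-T23, a non-classical class I gene, was 104 and 67.6 in immune, 92.5 and 77.003 in endothelial and 36.1 and 21.9 in epithelial libraries. Both overlapped with endothelium. Against the mean of both fractions, 9 members were called higher, and 4 without the pool 1 immune library. Class I heavy chain genes are near copies, and single levels are uncertain.

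Interferon-induced genes were mixed. Of 16 tested members, 8 were called higher and 1 lower than epithelium, and 2 higher and 4 lower than endothelium. Over all genes tested, 18.7% were higher and 15.8% lower than epithelium, and 14.1% higher and 21.8% lower than endothelium. The counts of the list against endothelium thus lay near the shares over all genes. Zbp1, a nucleic acid sensor, was 5.20 and 5.47 in immune, 0.392 and 0.859 in endothelial and 0.0531 and 0.244 in epithelial libraries (2.22 ± 0.16, adjusted p = 3.71e-08). Ifitm3, an antiviral membrane protein, was 788 and 789 in immune, 1783 and 1885 in endothelial and 243 and 256 in epithelial libraries, between the other 2 fractions (-1.22 ± 0.41, adjusted p = 0.0278 against endothelium, 1.66 ± 0.41, adjusted p = 0.00434 against epithelium). Its call against endothelium ended in fits without any 1 of the 2 endothelial and 2 immune libraries (adjusted p of up to 0.11). Cxcl10, a chemokine for activated T cells, was 9.69 and 26.9 in immune, 4.74 and 11.1 in endothelial and 1.02 and 2.23 in epithelial libraries (1.91 ± 0.70, adjusted p = 0.0455), and its call ended in fits without 1 library (adjusted p of up to 0.378). Oasl2 was 10.5 and 15.63 in immune, 29.4 and 56.2 in endothelial and 5.82 and 7.22 in epithelial libraries, lower than in endothelium (-1.59 ± 0.51, adjusted p = 0.0221).

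Proliferation genes were found in all 3 fractions. Against endothelium the 26 tested cell cycle genes had a median difference of -0.32, and both immune libraries lay below both endothelial libraries for 15 of them. Mki67, a protein of dividing cells, was 127 and 127 in immune, 136 and 142 in endothelial and 45.02 and 59.7 in epithelial libraries (-0.13 ± 0.46, adjusted p = 0.86 against endothelium, 1.28 ± 0.46, adjusted p = 0.0427 against epithelium). Top2a, which untangles replicated DNA, was 35.01 and 26.4 in immune, 38.6 and 44.9 in endothelial and 12.5 and 16.5 in epithelial libraries (0.29 ± 0.48, adjusted p = 0.68). Pcna, the replication clamp, was 172 and 125 in immune, 177 and 101 in endothelial and 92.7 and 53.9 in epithelial libraries, Ube2c was 65.1 and 67.8 in immune, 109 and 110.3 in endothelial and 40.5 and 52.1 in epithelial libraries and Ccna2, cyclin A2, was 60.4 and 57.7 in immune, 86.7 and 94.7 in endothelial and 22.5 and 33.5 in epithelial libraries. The epithelial libraries were the lowest for Mki67, Top2a, Pcna, Ube2c and Ccna2, and the last 3 were not called against the mean of both. Both immune libraries lay above both epithelial libraries for 25 of the 26 tested cell cycle genes, and for 4197 of all 11569 genes tested. Of 26 tested cell cycle genes, only Bub1b was called against the mean of both (0.99 ± 0.28, adjusted p = 0.0107), a call that ended without the pool 1 immune library (adjusted p = 0.0945). Against epithelium 4 were called higher (15.4%, beside 18.7% over all genes tested), and 16 with the pools as a block. After rescaling by size factors it was 2, as it was without either endothelial or the pool 2 immune library, and it was 1 without the pool 2 epithelial or the pool 1 immune library.

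Early response genes, which tissue dissociation can induce, gave 3 higher and 1 lower call among 16, and each of these calls ended in some fit that left out 1 library. These calls are 18.8% and 6.2% of the list, beside 15.4% and 20.5% over all genes tested. Fos was 43.3 and 55.7 in immune, 8.06 and 8.46 in endothelial and 8.45 and 7.36 in epithelial libraries (2.47 ± 0.83, adjusted p = 0.0299), and Jun was 88.01 and 76.5 in immune, 324 and 331 in endothelial and 138 and 114 in epithelial libraries (-1.29 ± 0.32, adjusted p = 0.00447). Fos was highest in immune and Jun in endothelial libraries. The call of Fos ended without any 1 of the 6 libraries (adjusted p of up to 0.168), and that of Jun without the pool 2 immune library (adjusted p = 0.0582). Zfp36, which destabilizes cytokine mRNAs, was 256 and 319.6 in immune, 131 and 111.4 in endothelial and 118 and 142 in epithelial libraries (1.19 ± 0.45, adjusted p = 0.053), highest in immune libraries and called only with the pools as a block (adjusted p = 0.00477). Dusp1 was 151 and 245 in immune, 402 and 445 in endothelial and 194 and 265 in epithelial libraries and Dnajb1 was 84.1 and 67.7 in immune, 133 and 129.9 in endothelial and 93.4 and 77.4 in epithelial libraries, both highest in endothelium.

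Glycolysis genes were called higher in 9 of 15 tested members, with a median of 0.81, and lower in 1. Gapdh was 1365 and 1995 in immune, 653 and 639.9 in endothelial and 491 and 700.1 in epithelial libraries (1.42 ± 0.20, adjusted p = 4.4e-05), and Aldoa was 146 and 142 in immune, 59.1 and 38.8 in endothelial and 58.9 and 55.7 in epithelial libraries (1.44 ± 0.29, adjusted p = 0.00107). Slc16a3, a lactate exporter, was 2.52 and 2.54 in immune, 0.338 and 0.168 in endothelial and 0.342 and 0.405 in epithelial libraries (1.43 ± 0.24, adjusted p = 0.000262). Ldha, lactate dehydrogenase, was 267 and 241 in immune, 149.9 and 146 in endothelial and 141 and 164 in epithelial libraries (0.76 ± 0.18, adjusted p = 0.00332), and Pkm, pyruvate kinase, differed by 0.81. Immune libraries were the highest for all 5. Vegfa, the vascular growth factor, was the lower one, at 27.99 and 12.8 in immune, 39.3 and 45.5 in endothelial and 143 and 111.1 in epithelial libraries (-1.89 ± 0.27, adjusted p = 4.46e-05).

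Genes of the endothelium were low in the immune libraries. All 18 endothelial identity genes were called lower than the mean of both other fractions, and 18 of 18 lower than in endothelium, with a median of -3.26; without the pool 2 immune library 7 were called against the mean of both. Cdh5, VE-cadherin, was 31.2 and 17.1 in immune, 268 and 256 in endothelial and 24.9 and 23.9 in epithelial libraries (-3.44 ± 0.50, adjusted p = 5.23e-05 against endothelium). Aplnr, the apelin receptor of capillaries, was 86.6 and 64.4 in immune, 1095 and 1126 in endothelial and 64.9 and 69.4 in epithelial libraries (-3.88 ± 0.58, adjusted p = 6.83e-05), and Gpihbp1, which anchors lipoprotein lipase in capillaries, was 31.4 and 21.6 in immune, 322 and 379 in endothelial and 25.3 and 27.2 in epithelial libraries (-3.69 ± 0.48, adjusted p = 1.68e-05). Slc6a2, the noradrenaline transporter, was 0.874 and 1.33 in immune, 25.9 and 51.5 in endothelial and 0.556 and 1.16 in epithelial libraries (-4.17 ± 0.26, adjusted p = 1.39e-08). The immune and epithelial libraries overlapped for these 4 genes. Ramp2, a receptor partner for adrenomedullin, was 72.9 and 42.7 in immune, 749 and 738 in endothelial and 67.2 and 60.3 in epithelial libraries, Clec14a was 75.4 and 38.6 in immune, 717 and 764 in endothelial and 42.5 and 49.6 in epithelial libraries, the transcription factor Sox18 was 62.6 and 39.1 in immune, 709.7 and 821 in endothelial and 53.4 and 49.6 in epithelial libraries and Cldn5, a tight junction protein, was 48.7 and 23.5 in immune, 464 and 254 in endothelial and 52.6 and 27.1 in epithelial libraries. They differed from endothelium by -3.71, -3.75, -3.92 and -3.30. In these the endothelial libraries were high and the other fractions close to each other. Fbln2, Ptx3, Hey1, Gja5, Gja4 and Gpr182 were lower than in endothelium by differences between -3.98 and -3.58.

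Lymphatic endothelial genes were lower than in endothelium in 5 of 6 tested members. Lyve1, a hyaluronan receptor, was 38.01 and 52.9 in immune, 314 and 996 in endothelial and 19.1 and 57.4 in epithelial libraries (-3.61 ± 0.67, adjusted p = 0.000492), and Ccl21a, a homing chemokine, was 32.1 and 13.7 in immune, 589 and 323 in endothelial and 13.4 and 8.58 in epithelial libraries (-4.31 ± 0.64, adjusted p = 6.49e-05). Flt4, the receptor for VEGF-C, was 4.38 and 4.33 in immune, 52.2 and 84.9 in endothelial and 3.00 and 3.56 in epithelial libraries (-3.66 ± 0.36, adjusted p = 1.26e-06). Immune and epithelial libraries were both far below endothelium for these. Pdpn, podoplanin, was 1.95 and 1.29 in immune, 1.91 and 2.35 in endothelial and 10.04 and 7.53 in epithelial libraries, highest in epithelium, where alveolar type 1 cells carry it. Against the mean of both fractions 6 of 6 were called lower, but 3 with a pseudocount of 0.1.

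Genes of the epithelium were low against the epithelial libraries. Of 18 epithelial identity genes, 17 were called lower, with a median of -2.32, and all 14 alveolar type 2 genes, with a median of -3.34. Sftpc, surfactant protein C, was 2962 and 719.6 in immune, 748 and 1262 in endothelial and 24016 and 13244 in epithelial libraries (-3.61 ± 0.96, adjusted p = 0.00787 against epithelium), a call that ended without the pool 1 epithelial or the pool 2 immune library (adjusted p of up to 0.113). Nkx2-1, the lung epithelial transcription factor, was 26.9 and 24.6 in immune, 8.31 and 29.9 in endothelial and 182 and 275 in epithelial libraries (-3.07 ± 0.77, adjusted p = 0.00516). Irx1, a homeobox gene, was 6.36 and 3.70 in immune, 2.03 and 11.3 in endothelial and 72.7 and 75.2 in epithelial libraries (-3.67 ± 0.64, adjusted p = 0.000328), and Lgi3 was 15.9 and 8.14 in immune, 4.20 and 15.51 in endothelial and 145 and 154 in epithelial libraries (-3.60 ± 0.71, adjusted p = 0.000936). In each of these 4 the immune libraries were far below the epithelial ones and overlapped with the endothelial libraries. The surfactant genes Sftpb (-3.48) and Sftpa1 (-3.60), the phosphate transporter Slc34a2 (-3.57), the mucin Muc1 (-3.33) and the tight junction gene Cldn18 (-3.11) were lower than in epithelium too, with immune levels of 432 and 314 for Sftpa1 and 108 and 65.2 for Sftpb. Krt19, a keratin, was 66.3 and 36.2 in immune, 4.82 and 13.8 in endothelial and 82.5 and 94.9 in epithelial libraries, above endothelium (2.43 ± 0.72, adjusted p = 0.0148) and not called against epithelium (-0.84 ± 0.72, adjusted p = 0.408). Bex4, S100g, Bex2, Scgb1c1, Scd1, Pla2g1b, Irx2 and Egfl6 differed from epithelium by -3.62 to -3.23.

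Alveolar type 1 genes were called lower than in epithelium in 11 of 12 members. Ager, the receptor RAGE, was 125 and 34.2 in immune, 44.7 and 62.04 in endothelial and 813 and 389.6 in epithelial libraries (-3.08 ± 0.76, adjusted p = 0.00483), and Akap5, a kinase anchor, was 204 and 122 in immune, 74.3 and 284 in endothelial and 993 and 1406 in epithelial libraries (-2.90 ± 0.73, adjusted p = 0.00551). Cav1, which shapes caveolae in endothelium and type 1 cells alike, was 23.3 and 12.6 in immune, 168 and 148 in endothelial and 33.4 and 41.1 in epithelial libraries (-2.10 ± 0.37, adjusted p = 0.000373 against the mean of both). Immune libraries were the lowest for Cav1 and overlapped with endothelium for the other 2. Against the mean of both fractions 10 were called lower, and 5 without the pool 2 immune library. Of 4 tested mesothelial genes, Msln was called lower (11.2 and 7.22 in immune, 16.9 and 37.8 in endothelial and 44.1 and 51.95 in epithelial libraries; -1.84 ± 0.49, adjusted p = 0.00782), which ended without the pool 2 immune library (adjusted p = 0.104).

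Secretory cell transcripts of the airway did not behave like the alveolar ones. Of 13 tested club, secretory and ciliated genes, 10 were called higher in immune than in endothelial libraries and 8 lower than in epithelial libraries, the latter 5 without the pool 2 epithelial or the pool 2 immune library. Scgb1a1 (chr19:9083636-9087958, minus strand), the club cell secretoglobin, was 2476 and 3421 in immune, 21.2 and 159 in endothelial and 8745 and 13729 in epithelial libraries (5.61 ± 0.82, adjusted p = 5.63e-05 against endothelium, -1.91 ± 0.82, adjusted p = 0.086 against epithelium). Scgb3a2 was 242 and 122 in immune, 1.72 and 3.79 in endothelial and 852 and 454 in epithelial libraries (5.58 ± 0.81, adjusted p = 4.92e-05 and -1.85 ± 0.81, adjusted p = 0.09), and Cyp2f2, a club cell cytochrome, was 106 and 92.98 in immune, 1.09 and 4.33 in endothelial and 289.5 and 432 in epithelial libraries (4.91 ± 0.61, adjusted p = 1.16e-05 and -1.82 ± 0.61, adjusted p = 0.029). Scgb3a1, another secretoglobin, was 142 and 97.2 in immune, 0.833 and 1.54 in endothelial and 405 and 280.3 in epithelial libraries (5.78 ± 0.99, adjusted p = 0.000254 and -1.51 ± 0.99, adjusted p = 0.269). Immune libraries lay between the other fractions for all 4. Tubb4b, a tubulin of cilia and of many other cells, was 276 and 189.9 in immune, 278 and 215 in endothelial and 490.1 and 338 in epithelial libraries and was called lower than in epithelium only with the pools as a block (adjusted p = 0.00648). The summed list was 3343 and 3983 in immune, 325.6 and 405.8 in endothelial and 11005 and 15478 in epithelial libraries. Foxj1, the ciliated cell factor, was 7.13 and 6.94 in immune, 0.218 and 0.505 in endothelial and 28.98 and 39.6 in epithelial libraries. The source of these transcripts in the CD45+ fraction was not tested.

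Mesenchymal genes were present in all 3 fractions. Of 13 tested, Fn1, fibronectin, was called higher (64.8 and 132 in immune, 60.2 and 52.9 in endothelial and 8.53 and 9.55 in epithelial libraries; 1.96 ± 0.46, adjusted p = 0.00356), a call that ended without the pool 2 immune library (adjusted p = 0.0932), and Eln, elastin, lower (13.2 and 10.5 in immune, 114 and 139 in endothelial and 25.4 and 28.2 in epithelial libraries; -2.22 ± 0.41, adjusted p = 0.000543). With the pools as a block, 5 were called lower. Mfap4, an elastic fiber protein, was 319 and 171 in immune, 271 and 355 in endothelial and 92.998 and 74.1 in epithelial libraries. The collagen gene Col3a1 was 19.6 and 9.37 in immune, 32.2 and 37.1 in endothelial and 17.1 and 16.04 in epithelial libraries, and Postn, periostin, was 22.99 and 9.19 in immune, 41.7 and 38.4 in endothelial and 16.4 and 14.3 in epithelial libraries. Pool 1 was the higher of the 2 immune libraries for these 3, and none was called against the mean of both.

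Several gene lists differed in level between the immune libraries of the 2 pools. No share over all genes tested is set beside these counts. Size factors of the immune libraries were 1.0219 in pool 1 and 0.9281 in pool 2, and the values here were not rescaled. In pool 2, 11 of 12 neutrophil genes were higher than in pool 1, with a median log2 difference of 1.15 and 8 of them by more than 1. Macrophage genes were higher in pool 2 for 17 of 20 members (median 0.58) and lysosomal genes for 20 of 24 (median 0.65). The other way round, all 10 MHC class II and dendritic cell genes (median -0.58), all 6 B cell genes (-0.72) and 9 of 10 mast cell genes (-0.76) were higher in pool 1. All 18 endothelial identity and all 14 alveolar type 2 genes were higher in pool 1 as well, with medians of -0.76 and -0.78. With 1 immune library per pool these differences have no test, and pool, sequencing run and carry-over of other cells cannot be told apart.

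**Figure D4:**
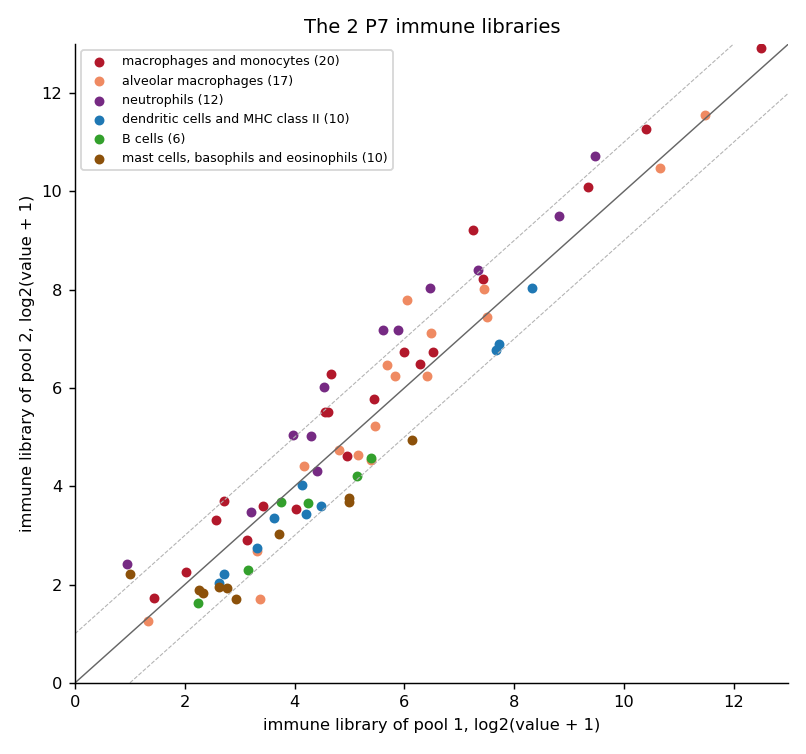
Levels of list members in the immune library of pool 1 (horizontal) and of pool 2 (vertical), as log2(value + 1); the solid line marks equal levels and the dashed lines a log2 difference of 1. Neutrophil genes lie above the line in 11 of 12 cases, with 8 past the dashed line, and all MHC class II and B cell genes and 9 of 10 mast cell genes lie below it.

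Between ages, the immune difference at P7 was set against the same difference at E16.5 and at P28. Each of these is a difference of differences, in which immune is compared with the mean of the other fractions of its age. All E16.5 libraries came from 1 sequencing run, which held no P7 library. All P28 libraries came from another run, which of the P7 libraries held only the pool 1 epithelial library. Age and sequencing run therefore cannot be told apart in these comparisons. Against E16.5, 159 genes were higher at P7 (1.37%) and 138 lower (1.19%), together 2.57%. Against P28, 463 were higher (4.00%) and 185 lower (1.60%), together 5.60%. These counts moved with single libraries and settings: leaving out 1 library gave 50 to 849 calls against E16.5, and 266 to 3556 against P28. Against E16.5 the count was 50 without the pool 2 P7 immune library, 140.0 without the pool 2 P7 endothelial and 164 without the pool 2 P7 epithelial library. It was 68 and 171 without the first and second E16.5 immune library and 845 and 849 without the first and second P28 immune library. Against P28 it was 266 and 373 without the pool 1 and pool 2 P7 immune library, 332 without the pool 1 endothelial and 399 without the pool 1 epithelial library. Without the first and second P28 immune library it was 268 and 3556. With the pools as a block the count against P28 was 1298, with 727 higher and 571 lower. After rescaling by size factors it was 1143, with 903 higher and 240.0 lower.

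Alveolar macrophage genes set P7 apart from E16.5. Of 17 tested, 9 had a larger immune difference at P7, 4 without the first E16.5 immune library, 5 without the pool 2 P7 immune library, and 6 without the second E16.5 immune, the pool 1 P7 immune or the pool 2 P7 endothelial library. Siglecf was 0.475 and 0.3 in the E16.5 and 34.5 and 23.9 in the P7 immune libraries, a difference of differences of 4.40 ± 0.58, adjusted p = 0.00138. Itgax was 0.744 and 1.19 and then 43.2 and 36.4 (4.34 ± 0.57, adjusted p = 0.00138), and Atp6v0d2 was 0.137 and 0.0534 and then 50.6 and 87.6 (5.61 ± 0.55, adjusted p = 9.74e-05). Marco had E16.5 values of 0.64 and 0.51 and P7 values of 17.1 and 20.4 (3.57 ± 0.56, adjusted p = 0.00427). The 2 ages did not overlap for any of these, and each call held in all 18 alternatives. Gpnmb (4.75 ± 0.88, adjusted p = 0.0107), Spp1 (3.99 ± 0.84, adjusted p = 0.0239), Ear6 (3.60 ± 0.89, adjusted p = 0.0446) and Bhlhe41 (3.28 ± 0.69, adjusted p = 0.0239) pointed the same way, but lost their calls in 3 to 9 of the 18.

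Both interleukin-1 genes and 4 of 6 tested B cell genes had a larger immune difference at P7 than at E16.5. Not all of these 4 B cell calls held when 1 P7 library was left out. Of 19 tested T cell, natural killer and innate lymphoid genes, 1 was called higher, a call that ended in some fit that left out 1 library. Il1b had E16.5 values of 0.517 and 0.327 and P7 values of 22.8 and 29.3 (4.06 ± 0.47, adjusted p = 0.0005), and Il1a was 0.0466 and 0.324 and then 11.8 and 23.5 (3.92 ± 0.47, adjusted p = 0.000562). Cd22 was 0.291 and 0.204 and then 12.5 and 11.8 (3.32 ± 0.53, adjusted p = 0.005), and Tnfrsf13c was 2.24 and 2.94 and then 61.3 and 49.2 (3.77 ± 0.75, adjusted p = 0.0163). The calls of Il1a, Il1b and Cd22 held in all 18 alternatives, and that of Tnfrsf13c, a gene outside the lists, was lost in 4 (adjusted p of up to 0.185), among them the fits without the pool 2 P7 immune or the first E16.5 immune library.

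For some genes the other fractions moved between ages. Lyz2 had immune values of 2197 and 1558 at E16.5 and of 5812 and 7761 at P7, yet the difference from the other fractions was smaller at P7 (-4.33 ± 0.64, adjusted p = 0.00295); these fractions were at 6.53 ± 1.70 endothelial and 14.7 ± 0.103 epithelial for E16.5 (mean ± SD, n = 2) and at 213 ± 109.7 endothelial and 3141 ± 211 epithelial for P7. Tspan8 (-2.43 ± 0.38, adjusted p = 0.00444), Cytl1 (-2.28 ± 0.44, adjusted p = 0.0148), Papolb (-2.26 ± 0.46, adjusted p = 0.0177), Bmp4 (-2.12 ± 0.39, adjusted p = 0.0108) and Rassf10 (-2.51 ± 0.63, adjusted p = 0.0486) also had a lower immune difference at P7. Rassf10 lost its call in 11 of 18 alternatives, Papolb and Bmp4 in 4 each and Cytl1 in 3, while Tspan8 kept it in all. All 4 losses included the fit without the pool 2 P7 immune library. In immune libraries Cytl1 was 10.1 and 6.46 and then 0.609 and 0.0497, and Bmp4 was 58.6 and 36.9 and then 21.1 and 14.8. The median epithelial identity gene reached 50.2% and 33.3% of its own fraction's level in the immune libraries of E16.5, against 19.1% and 10.5% at P7. The part of such transcripts in these differences was not tested.

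Of 10 tested mast cell, basophil and eosinophil genes, 3 had a larger immune difference at P7 than at P28, Mcpt4, Tpsb2 and Cma1. So did 3 stefin genes, which are in no list and were named by the size of this difference. Mcpt4 was 1.41 and 0.357 in E16.5 libraries, 69.4 and 29.9 in P7 libraries and listed at 0 in both P28 immune libraries; its difference was larger at P7 than at E16.5 (4.23 ± 0.38, adjusted p = 6.26e-05) and than at P28 (5.58 ± 0.38, adjusted p = 8.61e-07). Tpsb2 was 30.7 and 12.5 at P7 and 0.187 and 0.252 at P28 (4.15 ± 0.42, adjusted p = 7.7e-05), and Cma1 was 30.7 and 11.8 and then 0.87 and 1.45 (3.33 ± 0.45, adjusted p = 0.00089). Stfa2 was 45.5 and 36.3, 117 and 355 and 1.01 and 2.11 at the 3 ages in order (5.45 ± 0.48, adjusted p = 1.75e-05 against P28). Stfa3 (4.79 ± 0.31, adjusted p = 8.61e-07) and Stfa1 (4.69 ± 0.32, adjusted p = 8.61e-07) were larger at P7 too. All 6 calls held in each of the 18 alternatives.

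Neutrophil granule and complement genes gave less firm differences. Ltf was 8.19 and 10.1 at P7 and 1.78 and 0.491 at P28 (2.58 ± 0.28, adjusted p = 0.00014), a call that held in all alternatives. Ngp (3.03 ± 0.82, adjusted p = 0.0442) and Camp (2.02 ± 0.49, adjusted p = 0.0307) lost theirs in 12 and 8 of 18, C1qb (1.28 ± 0.35, adjusted p = 0.0477) and C1qc (1.52 ± 0.42, adjusted p = 0.0458) in 12 and 11. Il1a was 1.22 and 5.93 at P28, against 11.8 and 23.5 at P7 (3.23 ± 0.47, adjusted p = 0.00136). The P28 immune libraries were unlike each other, with a summed macrophage list of 2554 and 10808, and a summed cell cycle list of 2391 and 625. Of 26 tested cell cycle genes, 9 had a smaller immune difference at P7 than at P28 (34.6%, beside 1.6% over all genes tested). The list median was -1.86, and with the pools as a block 25 were called smaller. These 9 calls ended in some fit that left out 1 P7 library.

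Genes of the other fractions were among those with a larger difference at P7 than at P28. Adgrf5 was 21.2 and 14.3 in the P7 and 0.256 and 1.37 in the P28 immune libraries, against 145 ± 43.6 endothelial and 50.8 ± 26.7 epithelial at P7 and 228 ± 2.49 endothelial and 43.7 ± 9.20 epithelial at P28 (means ± SD, n = 2), a difference of differences of 3.69 ± 0.45, adjusted p = 0.000452. Cyp4b1 was 5.31 and 2.76 and then 0.0358 and 0.443 (3.48 ± 0.34, adjusted p = 5.36e-05). Scgb1a1 was 14.8 and 13.4, 2476 and 3421 and 109 and 620.2 in immune libraries at the 3 ages (4.44 ± 1.01, adjusted p = 0.0207 against P28), and lost its call in 5 of 18 alternatives. Lyz2 was 1837 and 7693 in the P28 immune libraries, with 2381 ± 746 endothelial and 12489 ± 3474 epithelial in the other fractions (3.59 ± 0.64, adjusted p = 0.0055). The median endothelial identity gene reached 0.08% and 0.33% of its own fraction's level in P28 immune libraries, against 11.9% and 6.36% in those of P7; the part of such transcripts in these differences was not tested. Lgals1 (-2.20 ± 0.53, adjusted p = 0.0267), Dck (-2.04 ± 0.43, adjusted p = 0.0137), Arhgap11a (-1.34 ± 0.36, adjusted p = 0.0429), Arl4c (-1.33 ± 0.28, adjusted p = 0.0135) and Pabpc1 (-1.28 ± 0.26, adjusted p = 0.0121) had a smaller immune difference at P7 than at P28, and each lost its call in 2 to 11 of the 18 alternatives.

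**Figure D5:**
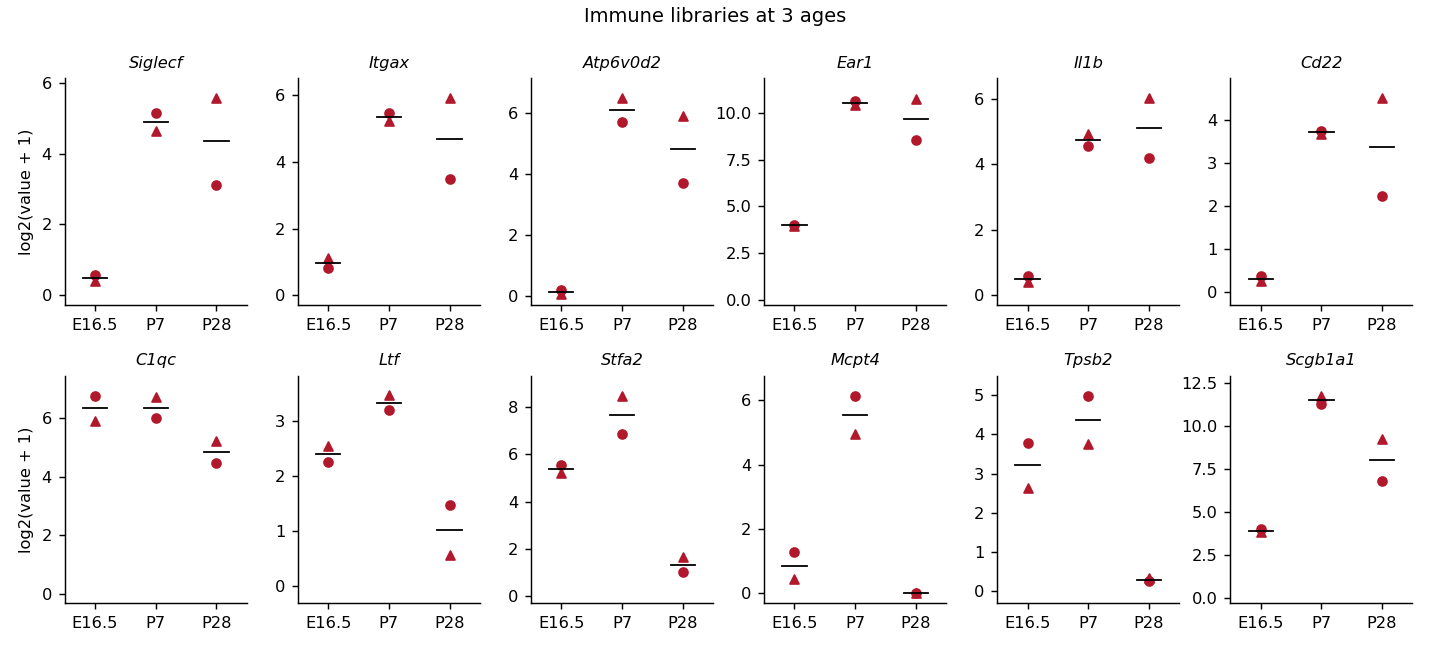
Levels of 12 genes in the immune libraries of E16.5, P7 and P28, as log2(value + 1); circles are replicate 1, triangles replicate 2, and bars the mean of 2. Siglecf, Itgax, Atp6v0d2, Il1b and Cd22 are lowest at E16.5, and Mcpt4, Tpsb2, Stfa2 and Ltf are lowest at P28.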

How the data were processed

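RNA of sorted lung fractions was sequenced in 22 libraries of 11 groups, each with 2 libraries. Per the submitters' processing notes, TopHat2 2.0.9 and the GRCm38/mm10 build were used; the quantifier, annotation and strand setting are not given in the sources used here. Per gene and library, the deposited signal values are 1 non-negative number that need not be whole, and as deposited every library has the same sum of 228405, so counts and depth are unknown and no count test was used. Of 24371 rows, 27 with date-like names (25 names, at most 0.0968% of a library) were left out.

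Values were tested as log2(value + 1) with limma 3.58.1 in R 4.3.3 (trended variance), as 11 group means over all 22 libraries (11 residual degrees of freedom), for 5 comparisons, with Benjamini-Hochberg adjustment over the 11569 genes with a value of 1 in 2 or more P7 libraries. The test was checked on simulated data. Genes named are the sort antigens and Tyrobp, the 10 genes (5 for ages) with the largest called differences in each direction outside the 34 lists, with a mean of at least 10 in the higher group and no overlap between the libraries compared, and list members, among them the 4 with the highest immune level of each list. Predicted and clone-named genes, microRNA and small nucleolar RNA genes, pseudogenes and ribosomal protein genes were left out of the choice by size. Of 536 list genes, 528 have a row. A few list members are not reported by name here. Members, lists and motifs were chosen with earlier results of these data known.

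Alternatives were a pseudocount of 0.1, other filters, size factors (12390 genes), single ages, leaving out libraries, within-pool values and the pool as a replicate block. Libraries of 1 pool deviated together from their group means, with correlations across genes of 0.37 (immune and endothelial), 0.43 (immune and epithelial) and 0.61 (endothelial and epithelial); the pairing comes from animal codes in the library descriptions. In 2 endothelial and epithelial libraries labelled E16.5 the description gives another age; they were kept, and left out in an alternative. Gene coordinates are from GENCODE M21 (GRCm38).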

Additional observations from a re-analysis of the deposited data

Results flagged for a closer look

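The immune difference at P7 was tested against that of the other ages, and the genes below passed that test of the difference itself. Against E16.5, 297 genes passed. Alveolar macrophage genes that were larger at P7 included Atp6v0d2 at 5.61 on the log2 scale, Siglecf at 4.40, Itgax at 4.34 and Marco at 3.57, and genes outside the lists Gpnmb at 4.75, Spp1 at 3.99, Ear6 at 3.60 and Bhlhe41 at 3.28. Gpnmb, Spp1, Ear6 and Bhlhe41 lost their calls in 3 to 9 of 18 alternatives. Of 24 tested lysosomal genes, 3 were called larger, none of them in every fit that left out 1 library. The cytokine genes Il1a and Il1b were at 3.92 and 4.06, the B cell gene Cd22 at 3.32, the BAFF receptor gene Tnfrsf13c at 3.77 and the mast cell protease Mcpt4 at 4.23. Smaller at P7 were Lyz2 at -4.33, Rassf10 at -2.51, Tspan8 at -2.43, Cytl1 at -2.28, Papolb at -2.26 and Bmp4 at -2.12. Rassf10 lost its call in 11 of the 18 alternatives, Tnfrsf13c, Papolb and Bmp4 in 4 each and Cytl1 in 3.

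Against P28, 648 genes passed. The stefin genes Stfa2, Stfa3 and Stfa1, which are in no list, were larger at P7, at 5.45, 4.79 and 4.69, as were 3 of 10 tested mast cell, basophil and eosinophil genes, Mcpt4, Tpsb2 and Cma1, at 5.58, 4.15 and 3.33. The neutrophil granule genes Ngp, Ltf and Camp were at 3.03, 2.58 and 2.015, the complement genes C1qc and C1qb at 1.52 and 1.28, and Il1a at 3.23. Of these, Ltf and Il1a kept their calls in all 18 alternatives. Ngp, Camp, C1qc and C1qb lost theirs in 12, 8, 11 and 12. Scgb1a1 was at 4.44, a call lost in 5 of the 18 alternatives, Adgrf5 at 3.69, Lyz2 at 3.59 and Cyp4b1 at 3.485. Smaller at P7 were Lgals1 at -2.20, Dck at -2.045, Arhgap11a at -1.34, Arl4c at -1.33 and Pabpc1 at -1.28. Each of these lost its call in 2 to 11 of the 18 alternatives. Markers of the other fractions, the sequencing runs and the evenness of the immune libraries also differed between the ages, as described above. Their part in these differences was not tested.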

How the results depend on the processing

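Depth is unknown, each group holds 2 libraries, and the pool and the sequencing run cannot be told apart, so p-values rest on the spread between pools and on variances shared with other ages. Where leaving out a library leaves 1 in its group, that library is assumed to vary like the others. Counts within a single pool have no test and are not given. Of 528 named list genes and others, 360.0 were called against the mean of both fractions, and 274 of these under every alternative; against endothelium it was 293 of 337 and against epithelium 302 of 358. No called value changed sign. With the pool as a replicate block, 29 more of the 528 were called against the mean of both fractions and 1 call was lost; against endothelium 30 were gained and none lost, and against epithelium 29 gained and 2 lost.

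Against the mean of both fractions 4151 genes were called, 2460.0 with a filter of at least 5 (6517 genes tested) and 2419 to 4198 when 1 library was left out. Against endothelium the 4156 became 2511 with that filter and 2996 to 4282 without 1 library, and against epithelium the 3999 became 2281 and 2910.0 to 3989. Against E16.5 the 297 became 75 with a pseudocount of 0.1, 541 with both ages alone, 927 with both ages alone and the pool as a replicate block, 61 without the 2 libraries whose description gives another age and 50 to 849 without 1 library. Against P28 the 648 became 1317 with a pseudocount of 0.1, 1143 with size factors, 187 with both ages alone, 1298 with the pool as a replicate block and 266 to 3556 without 1 library. Leaving out immune libraries of E16.5 and P28 was added after seeing the data. With the replicate block, 1984 genes were higher and 2649 lower against the mean of both fractions, 1766 and 2843 against endothelium, 2496 and 1990.0 against epithelium and 166 and 194 against E16.5. The cause of these shifts was not tested, except that the stricter filter tests fewer genes.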
